A study of Mus musculus with 9 samples.

Results

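Ufc1 and Cdk5rap3 are genes of UFMylation, and the peaks of XBP1 called around them were followed through 8 peak lists of mouse liver. Members were the peaks whose midpoint lay in a 25 kb window of the mouse genome build mm9 around each gene, chr1:173210001-173235000 for Ufc1 and chr11:96765001-96790000 for Cdk5rap3. This rule gave 19 peaks of 64078 in all lists, 13 of them in the Ufc1 window and 6 in the Cdk5rap3 window. Both genes were selected on the presence and score of their peaks in these same lists, so presence, scores and ranks are given as a description and none was tested.

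UFMylation is the attachment of the small ubiquitin-like protein UFM1 to other proteins. UFM1 is carried by the conjugating enzyme UFC1 and transferred to its targets by the ligase UFL1, which works on the endoplasmic reticulum membrane with DDRGK1 and with the adaptor CDK5RAP3. A known target is a ribosomal protein of the large subunit on ribosomes at that membrane, and the proteases UFSP1 and UFSP2 mature or remove UFM1. XBP1 activates genes in the unfolded protein response, by which cells that secrete much protein, hepatocytes among them, adjust the folding capacity of the endoplasmic reticulum.

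The peaks come from chromatin immunoprecipitation and sequencing (ChIP-seq) with the antibody M-186 to XBP1 on livers of wild-type C57Bl6-J mice. The groups were silenced basal liver, basal liver, silenced liver 6 h after partial hepatectomy, liver 6 h after partial hepatectomy and liver 6 h after a sham operation, then silenced liver 48 h after hepatectomy, liver 48 h after hepatectomy and liver 48 h after a sham operation. Surgery was done at 8 weeks of age, and the age of the unoperated mice is not given in the sources used here. Silencing means an adenovirus that constitutively expresses a short hairpin RNA against Xbp1 (shXBP1), injected into the tail vein 7 days earlier after clodronate liposomes, which deplete macrophages. The labels do not say whether unsilenced livers received the control virus with a hairpin against LacZ, or how many animals a library holds. There was 1 library per condition, and the input DNA of basal liver, the remaining sample of the 9, was not analysed here. List lengths were 177 and 102 peaks in silenced basal and silenced 48 h liver, 2482 in basal liver and between 4325 and 23087 in the others. Each peak carries the score of the authors' peak caller. Judged by the steps its values take, it was read as −log10 of a p-value, although the caller named commonly writes 10 times that, and peaks are compared by rank within a list, which does not depend on the scale.

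No annotation of mm9 was used, so a gene name stands for its window and no peak is assigned to a transcript. In the gene table of another build (GRCm38.p6) the genes next to Ufc1 on the side of lower coordinates were Usp21, a deubiquitinase, then Ppox, an enzyme of haem synthesis, and B4galt3, a galactosyltransferase. On its other side stood the pseudogenes Rpl27-ps1 and Gm25151 and the long noncoding RNA Gm20045. Cdk5rap3 was preceded by Gm11523, Gm11524 and Gm38961, and followed by the long noncoding RNA Gm11525 and Prr15l. In the RefSeq promoter table of that build, 0 starts of other genes lay within 1 kb of a start of Ufc1, and 0 within 1 kb of a start of Cdk5rap3. Rpl27-ps1, Gm25151, Gm11524, Gm38961, Gm11525 and Prr15l are not in that table, so their starts could not be counted.

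Promoter sequences of both genes are shown because XBP1 is known to bind ACGT-containing elements of stress-responsive promoters, where CCAAT boxes bound by NF-Y often lie nearby. Each runs from 250 bases before to 50 bases after an annotated start on the minus strand of GRCm38.p6 (RefSeq), and the capitals mark ACGT and CCAAT on either strand (CCAAT on the other strand reads ATTGG). The positions are chr1:171294953-171295252 for Ufc1 and chr11:96916352-96916651 for Cdk5rap3, in a build other than that of the peaks, so whether a peak lies on these bases was not determined.
Ufc1: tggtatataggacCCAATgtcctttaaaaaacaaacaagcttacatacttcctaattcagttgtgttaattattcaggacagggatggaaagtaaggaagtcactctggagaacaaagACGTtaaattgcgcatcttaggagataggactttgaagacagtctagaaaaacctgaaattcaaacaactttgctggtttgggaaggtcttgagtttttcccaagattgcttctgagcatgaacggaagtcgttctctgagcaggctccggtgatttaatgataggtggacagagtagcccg
Cdk5rap3: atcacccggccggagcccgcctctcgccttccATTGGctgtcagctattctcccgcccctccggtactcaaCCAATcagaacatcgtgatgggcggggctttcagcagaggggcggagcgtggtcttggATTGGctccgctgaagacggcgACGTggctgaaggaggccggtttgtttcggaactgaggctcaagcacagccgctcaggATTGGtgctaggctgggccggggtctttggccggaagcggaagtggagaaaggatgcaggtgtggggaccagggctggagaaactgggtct
Cdk5rap3 has an additional start 113 bases upstream of the one shown. Its window shares 187 bases with the window shown, and those bases hold all of its ACGT and CCAAT matches.

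The Ufc1 promoter held 1 ACGT, 132 bases before the start, and 1 CCAAT, 237 bases before it, and was poor in G and C (41.0%). The Cdk5rap3 promoter held 1 ACGT, 99 bases before the start shown, and 4 CCAAT matches, and its GC content was 62.3%. Among the 32851 promoters of the table, 30.9% held ACGT and 37.4% held CCAAT. The extended element TGACGTGG, present in 0.676% of all promoters, and the endoplasmic reticulum stress element (ERSE, a CCAAT and a CCACG at a fixed spacing), present in 0.119%, were in neither gene's promoter. All motifs were searched on both strands, and they overlap: each CACGT holds an ACGT and can hold part of a CCACG. The Cdk5rap3 ACGT is part of CACGT, a 5-base string that 19.6% of all promoters hold and the Ufc1 promoter lacks.

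The promoters of 8 genes of the UFM1 pathway (Ufc1, Cdk5rap3, Ufm1, Ufl1, Ddrgk1, Ufsp1, Ufsp2 and Odr4) were searched, and 5 of them held ACGT (Ufc1, Cdk5rap3, Ufm1, Ufl1 and Ufsp2). CACGT was found in 4, Cdk5rap3, Ufm1, Ufl1 and Ufsp2, and CCACG, found in 32.8% of all promoters, in the same 4 genes. CCAAT was found in Ufc1, Cdk5rap3, Ufsp1 and Ufsp2, and TGACGTGG and the ERSE in 0 of the 8. Counts over so few genes are a description of the letters and not of binding. A gene was counted if any of its promoters held the motif, whereas the shares of all promoters are per promoter. The stretches around CACGT are shown because TGACGTGG holds CACGT on its other strand, and CACGT occurred in 4 genes of the pathway. The ERSE holds CCACG and need not hold CACGT. Each is read so that CACGT (capitals) runs 5′ to 3′, with 10 bases on either side.
Cdk5rap3: ctccttcagcCACGTcgccgtcttc
Ufm1: cttcgcggccCACGTcgccctccag
Ufl1: aaacggcagaCACGTcagccttcag
Ufsp2: cctacagtagCACGTtgggaaaggg
In the same build these lie at chr11:96916486-96916510 (plus strand), chr3:53863820-53863844 (plus), chr4:25281780-25281804 (plus) and chr8:45975285-45975309 (minus). The only ACGT of the Ufc1 promoter, at chr1:171295121-171295144 (minus strand, flanks included), reads as follows.
Ufc1: gagaacaaagACGTtaaattgcgc

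The Ufc1 window held an XBP1 peak at its main site in every list, silenced livers included. Its score was 11.76 in silenced basal liver and 95.27 in basal liver. At 6 h it was 154.83 in silenced hepatectomy liver, 678.27 in hepatectomy liver and 241.16 in sham liver. At 48 h it was 10.03 in silenced hepatectomy liver, 122.93 in hepatectomy liver and 156.87 in sham liver. Scores depend on the depth and background of a list, and the ranks given further on are the basis for setting lists beside each other. Of the 28177 regions obtained by merging the lists, 53 had a peak in all 8 (0.188%), and of the 16485 tiles of 25 kb with any peak, 0.322% did. The shortest list, that of silenced 48 h liver, holds 102 peaks, so few regions could have a peak in all 8. These shares are thus bounded by list length and do not measure how unusual Ufc1 is.

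The Ufc1 peak was widest in the unsilenced 6 h livers. It spanned chr1:173223581-173225097 (1517 bp) after hepatectomy and chr1:173223598-173225195 (1598 bp) after the sham operation. In basal liver it was 700 bp wide (chr1:173224300-173224999), at 48 h it was 989 bp wide after hepatectomy and 886 bp wide after sham, and in silenced 6 h liver it was 897 bp wide. The 700 bp of the basal peak lay within the peak of each of the 6 lists of over 1000 peaks, whose midpoints spread over 310.5 bp. Silenced basal and silenced 48 h liver had short peaks in that stretch, of 81 bp (chr1:173224462-173224542) and 59 bp (chr1:173224340-173224398). These do not touch each other, so 0 bp was common to all 8 peaks. Both silenced lists hold narrow peaks in general, with medians of 103 bp and 94 bp against at least 290 bp in the other lists. The unsilenced 6 h lists hold wide peaks in general, with medians of 429 bp after hepatectomy and 412 bp after sham. In the remaining lists the median was at most 379 bp.

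The Cdk5rap3 window held a single peak in 6 of the 8 lists. No peak was called there in silenced basal or silenced 48 h liver. Its score was 138.93 in basal liver, and at 6 h it was 51.38 in silenced hepatectomy liver, 262.54 in hepatectomy liver and 152.61 in sham liver. At 48 h it was 149.46 after hepatectomy and 242.74 after sham. A peak in exactly these 6 lists was found at 1409 of the merged regions (5.0%), and 1534 regions had a peak in at least these 6. Of the 25 kb tiles, 9.25% had peaks in all 6. These 6 are the lists of over 1000 peaks, and with the other 2 left out both genes had a peak in 6 of 6 lists.

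The Cdk5rap3 peak was the more constant in position. Its midpoints spread over 125.5 bp, and 585 bp (chr11:96777421-96778005) were common to all 6 peaks. The widths ran from 631 bp in silenced 6 h liver to 1068 bp in 6 h sham liver, and the peak of 6 h hepatectomy liver was 868 bp wide (chr11:96777317-96778184). Its start varied over 139 bp and its end over 344 bp between the 6 lists, while for the Ufc1 peak the start varied over 719 bp and the end over 196 bp.

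**Figure D1:**
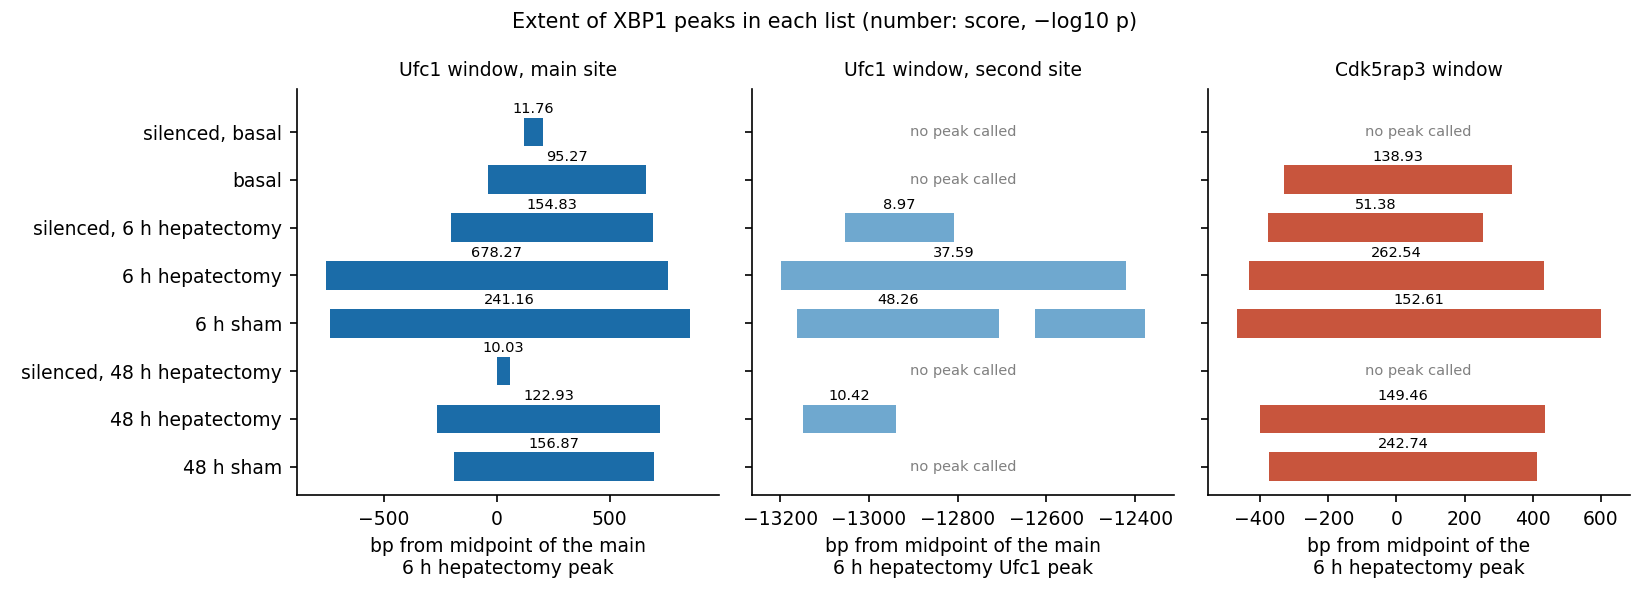
Extent of each peak, in bp from the midpoint of the 6 h hepatectomy peak (the main peak for both Ufc1 panels), with the 8 lists down the page and the score of the best peak above its bar. The main Ufc1 site has a bar in all 8 lists, 59 and 81 bp wide in silenced 48 h and silenced basal liver, while Cdk5rap3 has a bar in 6 lists and the second Ufc1 site in 4.

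A weaker second site lay in the Ufc1 window about 13 kb towards lower coordinates, at a distance of 12809.5 bp between midpoints in 6 h hepatectomy liver. There its peak (chr1:173211142-173211917) scored 37.59 and ranked 5073 of 22071. In 6 h sham liver the site was split into 2 peaks with scores of 48.26 and 7.04, ranks 2056 and 22516 of 23087. It scored 8.97 in silenced 6 h liver, rank 3789 of 4325, and 10.42 in 48 h hepatectomy liver, rank 4461 of 7212. Silenced basal, basal, silenced 48 h and 48 h sham liver had no peak there. Regions with a peak in just the 4 lists that had this site numbered 611 (2.17%). Whether this site belongs to Ufc1, Usp21, Ppox or B4galt3 was not determined.

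Peaks just outside the windows were weaker than the main ones. In 6 h hepatectomy liver the nearest scored 19.53, 9.588 kb below the Ufc1 window, and 14.94, 24.104 kb above it. For Cdk5rap3 the nearest in that list scored 17.39, 46.01 kb below the window, and 14.94, 6.554 kb above it.

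**Figure D2:**
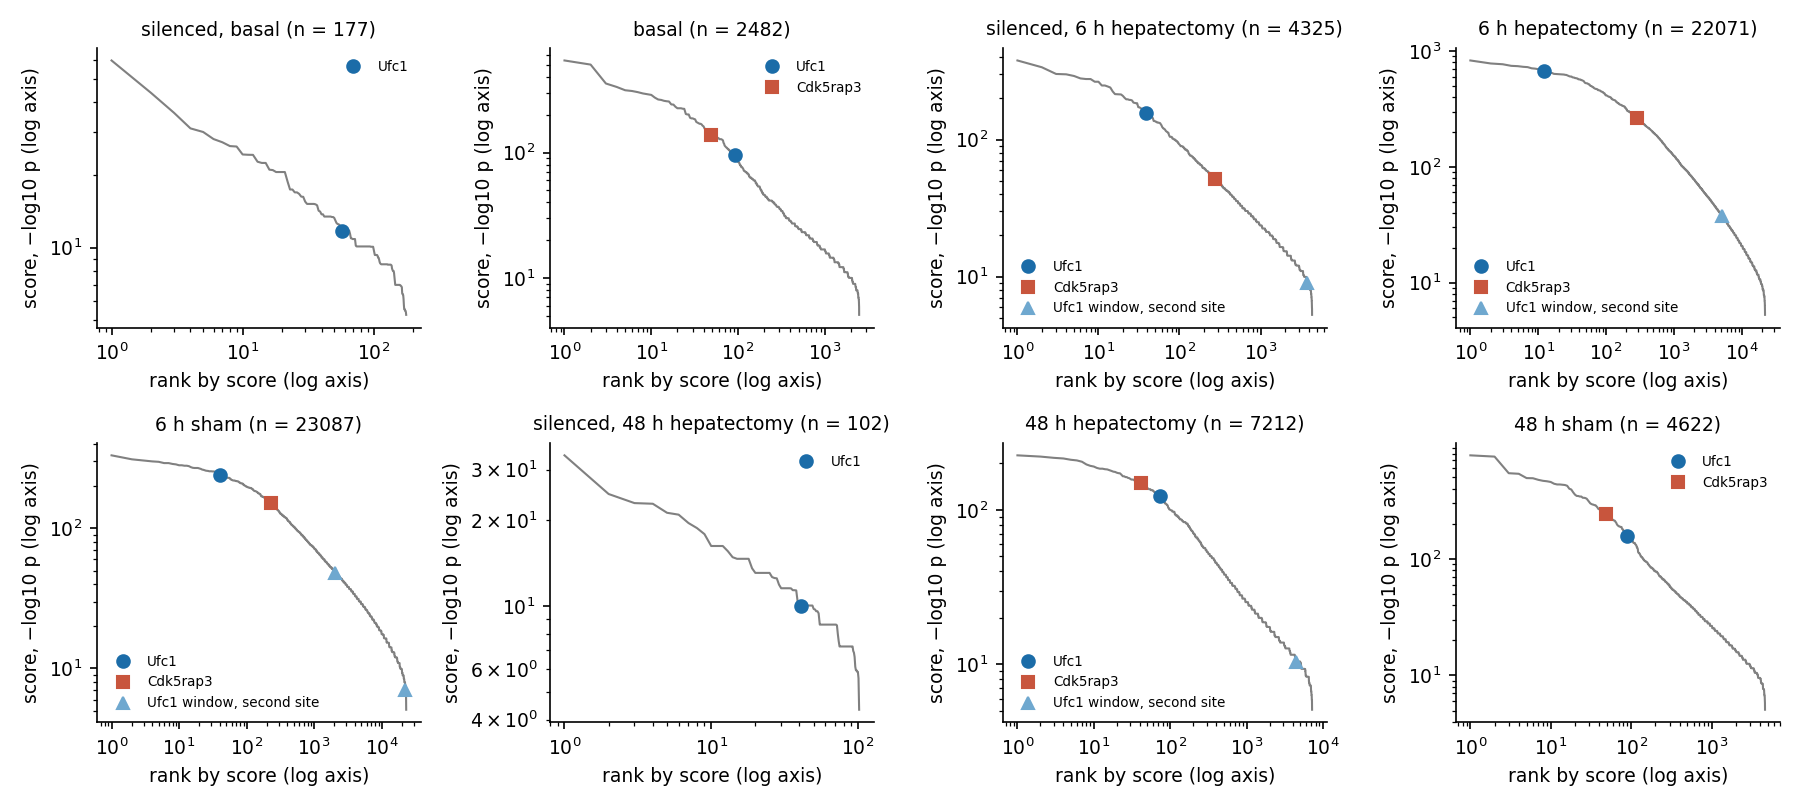
Score (−log10 p, log axis) against rank (log axis) of all peaks of each of the 8 lists, with the main Ufc1 peak as a circle, the Cdk5rap3 peak as a square and the second Ufc1 site as triangles. Both main peaks sit on the upper part of the curve in the 6 longer lists, with Ufc1 left of Cdk5rap3 at 6 h and right of it in basal and 48 h liver.

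Among all peaks of the longer lists both sites stood near the top. The Ufc1 peak ranked 12 of 22071 in 6 h hepatectomy liver and 40 of 23087 in 6 h sham liver, so that 0.0544% (0.0281 to 0.095%) and 0.178% (0.128 to 0.241%) of the peaks scored at least as high. The intervals are 95% Clopper-Pearson intervals, which treat the peaks of a list as a random sample. They do not measure how far a rank would vary between libraries. In the same lists Cdk5rap3 ranked 291 and 227. In silenced 6 h liver Ufc1 ranked 39 and Cdk5rap3 272 of 4325. In the other lists the places were reversed, with Ufc1 at 91 and Cdk5rap3 at 49 of 2482 in basal liver, at 73 and 41 of 7212 in 48 h hepatectomy liver and at 90 and 48 of 4622 in 48 h sham liver. In the short silenced lists the Ufc1 peak stood further down, at 57 of 177 in basal liver and 41 of 102 at 48 h.

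Within a list the scores share a scale, and the Ufc1 score minus that of Cdk5rap3 was positive in 3 lists and negative in 3. At 6 h the difference was 103.45 in silenced hepatectomy liver, 415.73 in hepatectomy liver and 88.55 in sham liver. It was -43.66 in basal liver, -26.53 in 48 h hepatectomy liver and -85.87 in 48 h sham liver. Ufc1 was thus the higher of the pair in the 6 h lists and Cdk5rap3 in the basal and 48 h lists.

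Lists of unlike length make ranks hard to set side by side, so both peaks were also ranked among the 1534 regions present in all 6 longer lists, a choice made after seeing the data. Ufc1 then ranked 38 in silenced 6 h hepatectomy liver, 12 in 6 h hepatectomy liver and 40 in 6 h sham liver, against 90 in basal, 73 in 48 h hepatectomy and 90 in 48 h sham liver. Cdk5rap3 ranked 251, 285 and 223 in the same 6 h lists, against 49 in basal, 41 in 48 h hepatectomy and 48 in 48 h sham liver. Ufc1 was therefore better placed in each 6 h list than in each other list, which held for 120 of the 1534 regions (7.82%). Cdk5rap3 was worse placed in each 6 h list than in each other list, which held for 113 regions (7.37%). With 1 library per condition, this split by time cannot be told apart from differences between libraries.

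**Figure D3:**
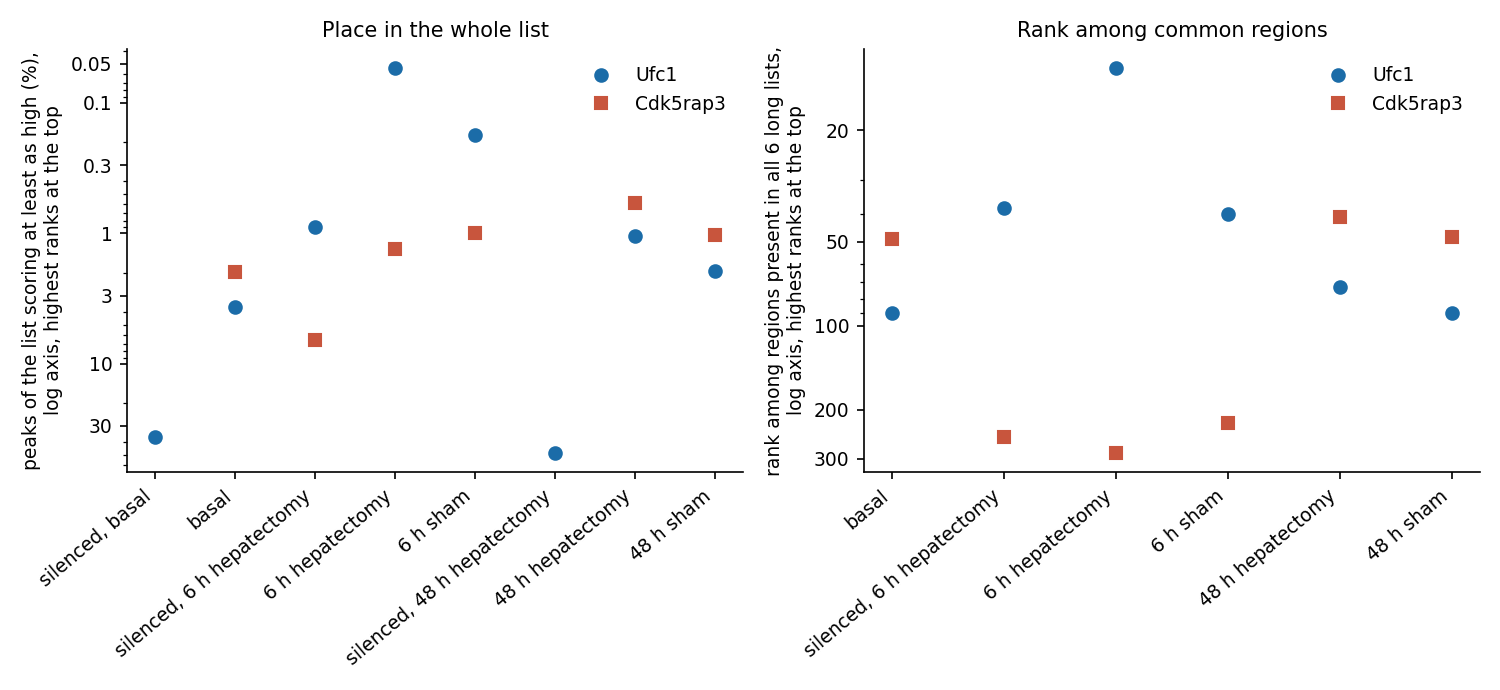
Left, share of the peaks of each list that score at least as high as the Ufc1 (circles) or Cdk5rap3 (squares) peak, and right, rank of both among the 1534 common regions in the 6 longer lists, on log axes with the highest ranks at the top. Ufc1 lies above Cdk5rap3 in the 3 lists of 6 h (ranks 38, 12 and 40 on the right) and below it in basal and 48 h liver (90, 73 and 90).

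Silenced livers show which sites keep a called peak after the silencing treatment, and the depth of knockdown was not analysed here. That treatment included adenovirus and clodronate liposomes, and whether unsilenced livers received the control virus is not known. Effects of knockdown and of the treatment therefore cannot be told apart. The narrowest peak was 53 bp wide in silenced basal and in silenced 48 h liver, and at least 190 bp wide in the other lists. The Ufc1 peak was still called in all 3 silenced livers, and the Cdk5rap3 peak in 1 of 3, that of 6 h. Where 50% of each peak had to overlap, both genes kept a counterpart in 1 of 3, since the silenced basal and 48 h peaks of Ufc1 are short. In a silenced library, residual XBP1 and other sources of signal cannot be told apart. In basal liver 4.75% of all unsilenced peaks overlapped a silenced one, and in the top 10% by score, which held both sites, 39.4% did. The silenced list holds 177 peaks against 2482 unsilenced ones, which limits both shares. Of the 177 highest-scoring unsilenced peaks, 54.8% overlapped a silenced one. Of the 48 basal peaks that scored above Cdk5rap3, 45 had a silenced counterpart, and of the 90 above Ufc1, 77 had one. Cdk5rap3 was without a peak in silenced basal liver, where 3 of the 48 peaks above it had none either. Of the 90 above Ufc1, 13 had none, Cdk5rap3 among them.

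At 6 h after hepatectomy both sites kept a peak, as did 18.9% of all peaks and 87.6% of the top 10%. The silenced list holds 4325 peaks against 22071 unsilenced ones, which limits the share of all peaks. Of the 4325 highest-scoring unsilenced peaks, 68.0% kept a peak. Of the 290 peaks scoring above Cdk5rap3 in unsilenced liver, 290 had a counterpart. The silenced Ufc1 peak of 897 bp lay inside the unsilenced one and covered it in part, while the silenced Cdk5rap3 peak covered 631 bp of 868 bp. Among the common regions the rank was 38 in silenced against 12 in unsilenced liver for Ufc1, and 251 in silenced against 285 in unsilenced liver for Cdk5rap3. The weaker second site in the Ufc1 window was also called.

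At 48 h after hepatectomy 0.915% of all unsilenced peaks, and 8.03% of the top 10%, had a silenced counterpart. The silenced list holds 102 peaks against 7212 unsilenced ones, which limits both shares. Of the 102 highest-scoring unsilenced peaks, 51.0% had a silenced counterpart. Ufc1 had one, with an overlap of 59 bp, and Cdk5rap3 had none. Cdk5rap3 was the higher-scoring of the pair in the unsilenced list, and of the 40 peaks that scored higher 31 had a counterpart. Of the 72 that scored above Ufc1, 42 had one.

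**Figure D4:**
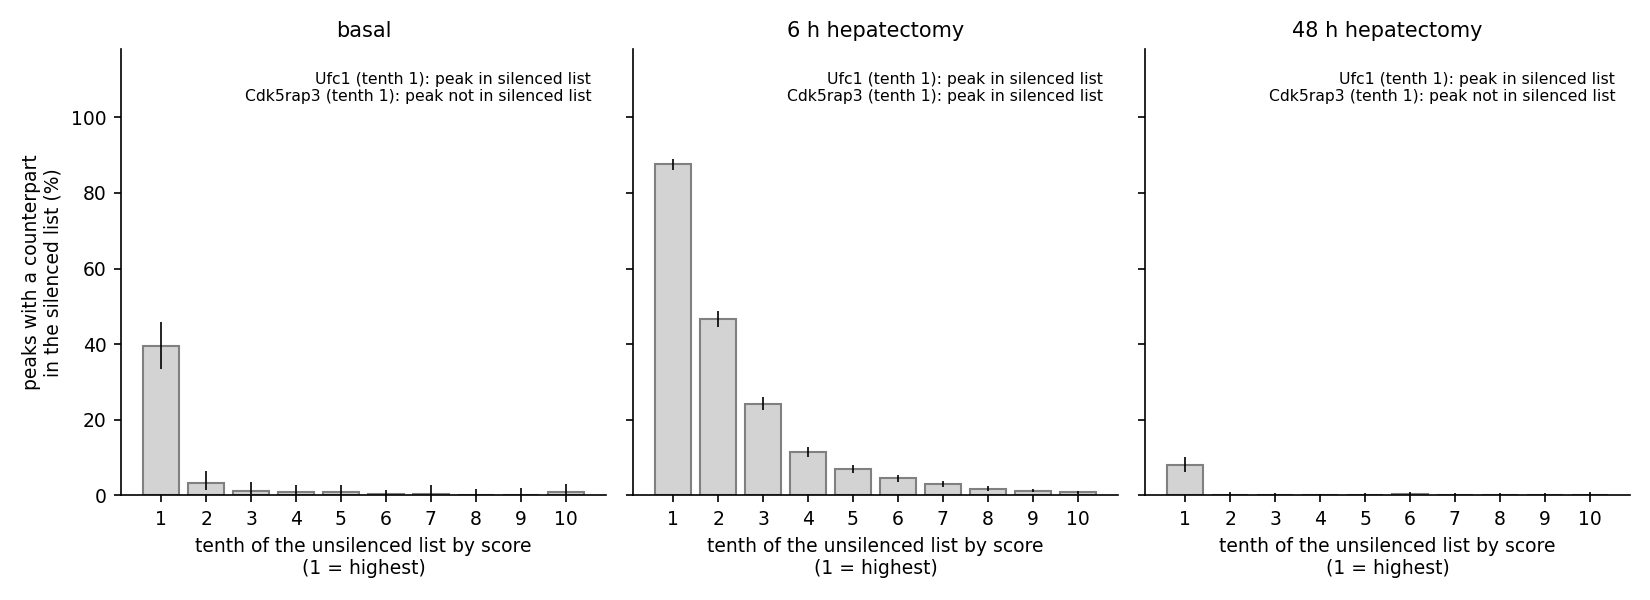
Share of unsilenced peaks with a counterpart in the silenced list of the same state, in 10 parts of the unsilenced list by rank, from highest (1) to lowest score (10) and with tied scores kept together, with 95% Clopper-Pearson intervals. Both genes lie in the first bar of each panel, of 39.4%, 87.6% and 8.03%, and the text in each panel says whether their peak was called in the silenced list. The silenced lists of basal and 48 h liver hold 177 and 102 peaks, which limits how high the bars of their panels can be.

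Hepatectomy and sham livers both had the Ufc1 and the Cdk5rap3 peak at 6 h and at 48 h. At 6 h 76.9% of all hepatectomy peaks overlapped a sham peak, and 99.9% of the top 10%. The Ufc1 peaks overlapped by 1500 bp, and the hepatectomy peak of Cdk5rap3 lay wholly within that of sham liver. Among common regions Ufc1 ranked 12 after hepatectomy and 40 after sham, and Cdk5rap3 ranked 285 after hepatectomy and 223 after sham. At 48 h, where 47.1% of all hepatectomy peaks and 92.4% of the top 10% overlapped a sham peak, Ufc1 ranked 73 after hepatectomy and 90 after sham and Cdk5rap3 41 after hepatectomy and 48 after sham. The second Ufc1 site had a peak after both operations at 6 h and, at 48 h, after hepatectomy and not after sham. Its 48 h hepatectomy peak ranked 4461 of 7212, in part 7 of 10 of that list by score. In that part 32.0% of the peaks overlapped a 48 h sham peak, so most peaks of similar score had no sham counterpart either. Whether the site differs between the operations was not tested.

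Basal liver already carried both main peaks, at ranks 91 and 49 of 2482. The Ufc1 peaks of 6 h and 48 h after hepatectomy covered all 700 bp of the basal peak, and the Cdk5rap3 peaks covered all 670 bp of theirs. The same was true after the sham operation at both times. Of all hepatectomy peaks 10.9% had a basal counterpart at 6 h and 30.3% at 48 h, and of all sham peaks 10.5% at 6 h and 44.0% at 48 h. In the top 10% by score, which held both sites in each of these lists, the shares were 63.7% and 90.6% for hepatectomy and 60.2% and 98.9% for sham at 6 h and 48 h. The second site in the Ufc1 window had no basal peak.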

How the data were processed

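Peaks of 8 immunoprecipitated liver libraries were analysed, grouped by their titles in the labels. Per the submitters' processing notes, Bowtie2 and MACS 1.4.2 were used on build mm9; no source used here states settings, control or pooling. The authors' deposited score was read as −log10 of a p-value: on that scale between 26.6% and 63.1% of the scores of 60 or less fell on steps of Poisson tail probabilities for 1 background mean (within 0.0051), and on a scale of 10 times −log10 of p between 5.81% and 18.6% of all scores did. Steps of the latter scale lie 10 times as far apart at the same tolerance, so fewer accidental matches arise there by construction. The contrast is thus in part fixed in advance and does not settle the scale. The contrast between both scales was smallest in the short lists, 29.4% against 18.6% in silenced 48 h and 26.6% against 12.4% in silenced basal liver. This version of MACS commonly writes 10 times −log10 of p, so the scale rests on these values alone, and ranks do not depend on it. Read depth per library is not given in the sources used here.

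Peaks were placed by midpoint, ranked by score within a list, and called shared at an overlap of at least 1 bp. Regions were peaks of all 8 lists merged at an overlap of at least 1 bp. Coordinates were written 1-based and never converted between builds. No test was run, since each condition had 1 library. Members, windows and gene lists were chosen with earlier results of these data known. The genes named were both members, their 3 nearest neighbours on either side and the UFM1 pathway list, of which some are not reported here; placing the pathway genes on peaks was planned only for an annotation of mm9 and was not done. Python 3.11.15, NumPy 2.4.6, pandas 2.3.3, SciPy 1.17.1 and matplotlib 3.10.9 were used, and overlap, rank and motif counting were checked on simulated data.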

Additional observations from a re-analysis of the deposited data

Results flagged for a closer look

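The Cdk5rap3 peak was flagged because the difference between hepatectomy and sham livers had one sign at 6 h and the opposite sign at 48 h. Among the common regions, 18.6% scored at least as high in hepatectomy liver and 14.7% in sham liver at 6 h, a difference of 3.91 percentage points. At 48 h the shares were 2.74% in hepatectomy liver and 3.13% in sham liver, a difference of -0.39 percentage points. Whether both times differ was not tested, and each condition had 1 library. How many of the common regions change sign in this way was not counted. For Ufc1 the difference had the same sign at both times, -1.89 at 6 h and -0.98 at 48 h.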

How the results depend on the processing

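Of 147 values recomputed under an alternative, 93 stayed within 1.5 times (counts) or within the 95% interval (shares), and 54 moved. Numbers of peaks and lists per window stayed in that range under all their alternatives, and ranks did so with ties at midrank, with peaks within 500 bp merged and without peaks over 2 kb or outside chromosomes 1 to 19 and X. The 95% interval is narrower in longer lists, so whether a share moved depends in part on list length. No paired analysis was possible because each condition had 1 library and the labels carry no replicate numbers.

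Ranked by width, the share of peaks at least as wide as the Ufc1 peak was 65.0% in silenced basal, 0.555% in silenced 6 h, 0.684% in 6 h hepatectomy, 0.273% in 6 h sham, 71.6% in silenced 48 h and 0.61% in 48 h hepatectomy liver. It was 3.06% in basal and 1.86% in 48 h sham liver. For Cdk5rap3 it was 4.09% in silenced 6 h, 7.93% in 6 h hepatectomy, 2.47% in 6 h sham, 1.50% in 48 h hepatectomy, 3.31% in 48 h sham and 3.83% in basal liver. By width, Cdk5rap3 was no longer ahead of Ufc1 in basal, 48 h hepatectomy or 48 h sham liver. In basal liver the widths were close, 670 bp for Cdk5rap3 and 700 bp for Ufc1. The reversal of their order between times thus rests on the score, and the cause was not tested. Among the common regions, chosen after seeing the data, the share scoring at least as high was 2.48%, 0.782% and 2.67% for Ufc1 in silenced 6 h, 6 h hepatectomy and 6 h sham liver, and 5.87%, 4.89% and 5.87% in basal, 48 h hepatectomy and 48 h sham liver. For Cdk5rap3 it was 16.9%, 18.6% and 14.7% in the same 6 h lists and 3.19%, 2.74% and 3.13% in the others. These shares are larger by construction, since fewer and stronger regions are ranked.

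Where 50% of each peak had to overlap, Ufc1 kept a counterpart in 1 of 3 silenced livers and in 2 of 4 comparisons with basal liver, and with midpoints within 250 bp in 2 of those 4. Against silenced liver the basal and 48 h pairs failed the 50% rule, where the silenced peaks are 81 bp and 59 bp wide, and against basal liver the 6 h pairs failed, where the 6 h peaks are over 1500 bp wide and the basal peak 700 bp; peaks of such unlike width cannot pass by construction. Over all peaks, the share with a counterpart under 50% overlap was 1.13%, 11.8% and 0.0% for silencing in basal, 6 h and 48 h liver, 70.4% and 41.7% for sham at 6 h and 48 h, and, against basal liver, 5.11% and 27.5% for hepatectomy and 5.61% and 40.2% for sham at 6 h and 48 h. With midpoints within 250 bp it was 17.8% for silencing at 6 h, 74.1% for sham at 6 h, and 10.2% and 9.90% for 6 h hepatectomy and 6 h sham liver against basal. Between equal numbers of highest-scoring peaks it was 54.8%, 68.0% and 51.0% for silencing, 75.3% and 57.9% for sham, and, against basal liver, 60.0% and 61.6% for hepatectomy and 59.0% and 66.8% for sham. In the 250 bases before the start alone, 26.9% of promoters held ACGT, 16.6% CACGT, 28.3% CCACG, 0.563% TGACGTGG and 33.8% CCAAT. Of the 8 pathway genes, 4 held ACGT, 3 CACGT, 4 CCACG and 4 CCAAT in those bases. Depth is unknown, so a site without a peak in a short list is not shown to be unbound.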
